A study of Mus musculus with 3 samples.

Results

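Transcripts of the γδ T cell receptor (TCR) and of genes tied to γδ lineages were followed in single cells of mouse thymus cultures. The 10 genes were taken as a list of symbols, and all 10 were found among the 32285 genes of the expression matrix. They are the constant genes Trdc, Tcrg-C1, Tcrg-C2 and Tcrg-C4, the variable (V) genes Tcrg-V6 and Trdv4, the transcription factor genes Sox13, Zbtb16 and Maf, and Cd163l1. Their unique molecular identifiers (UMIs) were counted in T, innate lymphoid and thymocyte populations, with and without contigs of the TCR β chain (TRB). The ORFTOC pool came from organoid reaggregate fetal thymic organ cultures, in which epithelial cells of E16.5 thymi, grown as organoids, were combined with EpCAM-depleted cells of E13.5 fetal thymi and with mouse embryonic fibroblasts (MEFs). Intact E13.5 lobes, kept as fetal thymic organ cultures, gave the FTOC pool. Both pools were of wild-type genotype (C57BL/6J mice per the study's methods, with wild-type MEFs from another laboratory), were labelled as untreated and were collected on day 13 of culture. Per the study's methods, both kinds were kept in the same medium, which held the growth factor FGF7 and, at the start, the kinase inhibitor thiazovivin. Of each kind, 2 cultures were mixed before the hashtag antibody was added, so each pool was 1 sample. No difference between pools could therefore be tested, and every interval given is a 95% interval that covers counting error only.

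The γδ TCR pairs a γ chain with a δ chain. Each is made by joining a V segment to a joining (J) segment and splicing the result to a constant gene. In the δ chain, diversity (D) segments are joined between V and J. The δ genes lie within the TCR α locus, so that joining an α V segment to an α J segment deletes Trdc from that chromosome. Fetal γδ T cells arise in waves that use different V genes, and the V6 γ chain with the δ chain of Trdv4 (also called Vδ1) is typical of a fetal wave that makes interleukin 17. Sox13 and Maf are transcription factors of γδ T cells that make interleukin 17. Zbtb16 encodes PLZF, a factor of innate-like lymphocytes. Cd163l1, also called Scart1, encodes a scavenger receptor found on γδ T cells.

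In the mm10 build, with positions from RefSeq for GRCm38.p6, Trdc spans chr14:54142851-54146108 and the Trdv4 segment chr14:54075004-54075515. On chromosome 13, Tcrg-V6 lies at chr13:19190368-19190929, Tcrg-C1 at chr13:19214103-19216618, Tcrg-C2 at chr13:19305060-19307551 and Tcrg-C4 at chr13:19344558-19352343. The protein-coding genes are Sox13 at chr1:133382300-133424459, Cd163l1 at chr7:140197218-140231145, Maf at chr8:115703253-115706894 and Zbtb16 at chr9:48651797-48836225.

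The γ constant genes resemble each other, which limits how surely a UMI is given to one of them. The first 120 bases of their transcripts in GENCODE vM39 are shown 5′ to 3′, with capitals where a base differs from Tcrg-C1.
Tcrg-C1: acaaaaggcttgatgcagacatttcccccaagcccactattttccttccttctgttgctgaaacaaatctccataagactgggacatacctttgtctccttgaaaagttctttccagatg
Tcrg-C2: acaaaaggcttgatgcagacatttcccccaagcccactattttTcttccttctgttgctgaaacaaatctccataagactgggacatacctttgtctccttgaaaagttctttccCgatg
Tcrg-C3: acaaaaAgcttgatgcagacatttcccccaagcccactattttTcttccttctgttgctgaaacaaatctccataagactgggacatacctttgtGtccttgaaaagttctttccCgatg
Tcrg-C4: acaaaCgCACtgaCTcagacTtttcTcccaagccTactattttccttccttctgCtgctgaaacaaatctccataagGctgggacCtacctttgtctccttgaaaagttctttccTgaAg

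Over these 120 bases Tcrg-C2 differed from Tcrg-C1 at 2 bases, Tcrg-C3 at 4 and Tcrg-C4 at 14. Over 300 bases the identity with Tcrg-C1 was 97.3% for Tcrg-C2, 95.7% for Tcrg-C3 and 82.7% for Tcrg-C4. None of the 211 windows of 90 bases in any of these genes was found unchanged in another. The split between Tcrg-C1 and Tcrg-C2 still rests on few bases and is less certain than their sum. The term γ constant UMIs is used for the sum of Tcrg-C1, Tcrg-C2 and Tcrg-C4. Tcrg-C3 had 45 UMIs in all immune cells and was not included.

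The last 60 bases of the V gene transcripts among the 10 genes are shown from the same source, since their UMIs mark which V segment a cell transcribes.
Tcrg-V6: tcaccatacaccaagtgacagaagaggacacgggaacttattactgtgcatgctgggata
Trdv4: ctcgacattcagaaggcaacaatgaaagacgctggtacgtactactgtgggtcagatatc

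After filtering, 8392 cells were kept, of which 5938 were immune and 2187 epithelial. The immune cells were 3128 of FTOC with a median of 2483 UMIs and 2810 of ORFTOC with a median of 5318 UMIs. They formed 18 clusters, made without the 10 genes and without any other segment with a Trd or Tcrg symbol. The clusters were named as "-like" from marker genes that are not among the 10. Cluster 13 held 160 cells led by Il17a and Blk and is called γδ T-like (62 ORFTOC and 98 FTOC cells). Cytotoxic-like cells formed cluster 5 (449 cells, led by Ly6c2 and Klrd1) and cluster 7 (331 cells, led by Xcl1 and Gzmc). In cluster 5 the markers of mature single positive (SP) cells had the highest mean of all classes. Cluster 12 held 174 cells with cell cycle and cytotoxic genes and stayed unnamed. Cells like type 3 innate lymphoid cells (ILC3-like) formed cluster 3 (547 cells, 79.7% ORFTOC) and cluster 16 (34 cells). ILC2-like cells formed cluster 8 (251 cells, 92.4% ORFTOC). In a sum over all cells of a pool, fewer cells of a type and less RNA per cell cannot be told apart, so values within clusters are given too.

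**Figure D1:**
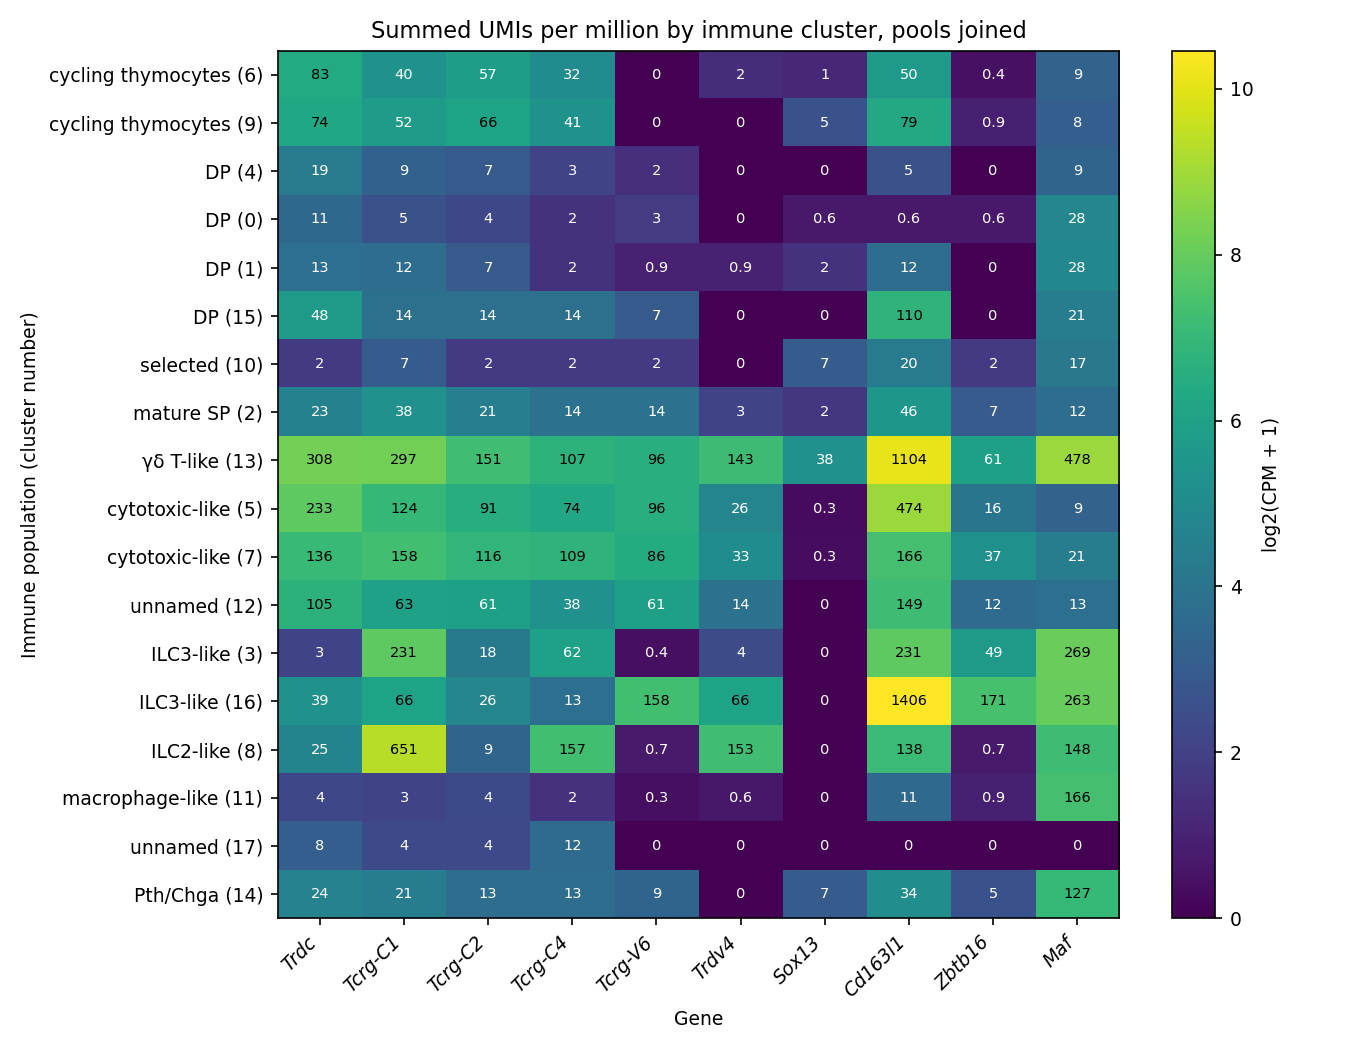
Summed UMIs of each gene per 1000000 UMIs (CPM) in each immune cluster, both pools joined. Rows are clusters, columns are genes, colour is log2(CPM + 1) and the printed value is the CPM. Trdc was highest in the γδ T-like cluster at 308 CPM and Tcrg-C1 in the ILC2-like cluster at 651 CPM.

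Trdc, the only δ constant gene, had 2890 UMIs in immune cells. Its level in UMIs per 1000000 UMIs (CPM) was 308 (276 to 343) in γδ T-like cells, 233 (218 to 248) in cytotoxic-like cluster 5 and 136 (125 to 149) in cluster 7. Cluster 12 followed at 105 CPM (92.4 to 118). These 4 intervals did not overlap. The cycling thymocyte clusters, at 83.1 and 74.1 CPM, overlapped in their intervals. Trdc stood at 22.9 CPM in mature SP cells and at 2.44 CPM, from 1 UMI, in selected thymocytes. ILC2-like cells had 25.4 CPM (17.9 to 34.8) and ILC3-like cluster 3 had 3.27 CPM (1.49 to 6.20). Cluster 5, with 7.56% of immune cells, held 32.2% of immune Trdc UMIs, against 11.4% in the γδ T-like cluster.

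The γ constant genes followed another order. Tcrg-C1 was highest in ILC2-like cells at 651 CPM (611 to 693), followed by γδ T-like cells at 297 CPM (265 to 332) and ILC3-like cluster 3 at 231 CPM (213 to 250). Cytotoxic-like cluster 7 had 158 CPM and cluster 5 had 124 CPM. Tcrg-C4 was also highest in ILC2-like cells, at 157 CPM (138 to 179), while clusters 7 and 13 did not differ beyond their intervals at 109 and 107 CPM. Tcrg-C2 was highest in γδ T-like cells at 151 CPM (129 to 177) and stood at 9.34 CPM in ILC2-like cells. In cells without any TRB contig, Tcrg-C2 gave 26.4% of 402 γ constant UMIs in γδ T-like cells and 30.8% of 536 in cytotoxic-like cluster 5. It gave 5.05% of 792 in ILC3-like cluster 3 and 0.952% of 1156 in ILC2-like cells. Tcrg-C1 gave 75.4% and 79.4% in these 2 innate lymphoid clusters, against 55.5% in γδ T-like cells.

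Whether δ and γ constant genes were found in the same cell was asked in cells with no TRB contig at all. Of 109 γδ T-like cells, 67 had both, 33 had γ constant UMIs alone, 4 had Trdc alone and 5 had neither. Of 167 cells in cytotoxic-like cluster 5, 120 had both, as did 85 of 183 in cluster 7 and 26 of 31 in cluster 12. In cluster 7 a further 75 cells had γ constant UMIs alone. In ILC3-like cluster 3, 4 of 519 cells had both and 282 had γ constant UMIs alone. In ILC2-like cells 24 of 233 had both and 170 had γ constant UMIs alone. Among cells with γ constant UMIs, Trdc was found in 67.0% (56.9 to 76.1) of γδ T-like, 12.4% (8.09 to 17.9) of ILC2-like and 1.40% (0.382 to 3.54) of ILC3-like cells of cluster 3. The median depths of these clusters were 5320, 5769 and 4775 UMIs.

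**Figure D2:**
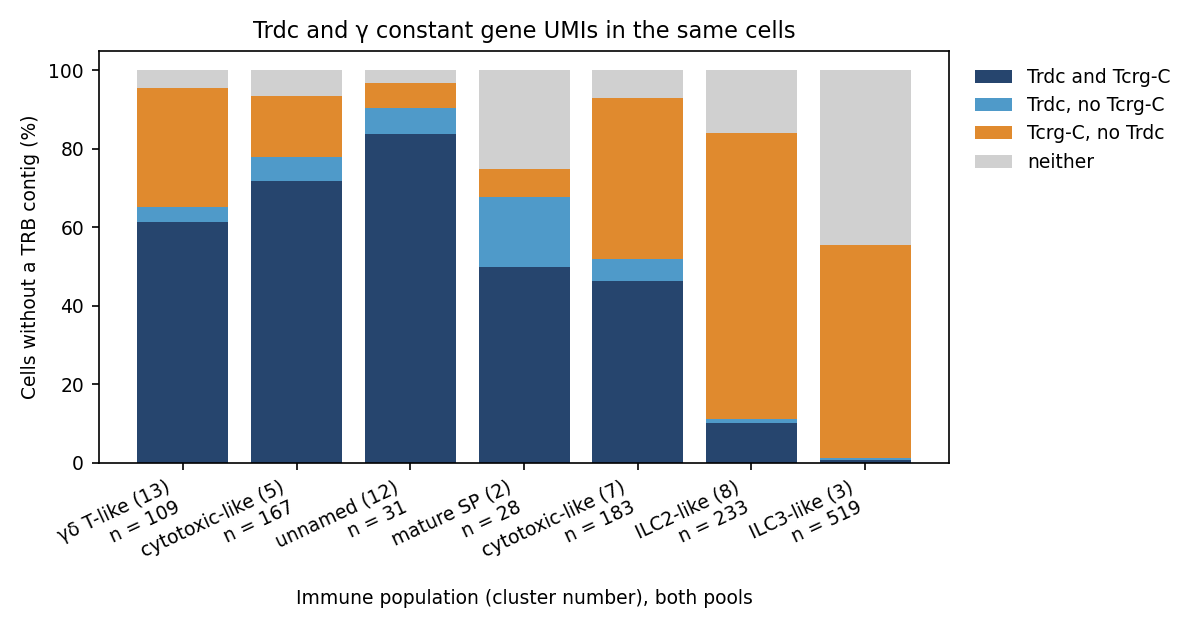
Cells with UMIs of Trdc, of a γ constant gene, of both or of neither, as stacked shares in percent of the cells without any TRB contig. Each bar is an immune cluster, both pools joined. Cells with both were 67 of 109 in the γδ T-like cluster and 4 of 519 in ILC3-like cluster 3.

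Epithelial cells, which should lack these genes, served as the background. Among them 88 had a productive TRB contig, and the parts of free RNA and of doublets in their counts were not tested. Of 2187 epithelial cells with a median of 12758 UMIs, 0.777% (0.454 to 1.24) had a Trdc UMI and 2.24% had a γ constant UMI. The Trdc share of 1.16% (0.425 to 2.499) in ILC3-like cluster 3, at a lower median depth, overlapped this interval. The Trdc share of 11.2% (from 7.42) in ILC2-like cells was above it. By pool, Trdc was found in 1.54% of FTOC and 1.36% of ORFTOC cells of cluster 3 that had γ constant UMIs. With each cell thinned to 1000 UMIs, γ constant UMIs were found in 48.6% of γδ T-like, 43.4% of ILC2-like and 21.6% of ILC3-like cells of cluster 3. Thinned shares with Trdc were 24.8%, 2.15% and 0.578% (0.119 to 1.68). The thinned epithelial shares were 0.229% for γ constant UMIs and 0.0915% (0.0111 to 0.33) for Trdc, so in cluster 3 the Trdc share lay above the epithelial one with overlapping intervals.

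Other parts of the receptor were read in the same cells. The signal chains differed between the clusters. In cells without a TRB contig, Cd3d, Cd3e and Cd3g, the CD3 chains that carry the TCR to the surface, stood at 537, 662 and 817 CPM in γδ T-like cells. In ILC2-like cells Cd3g stood at 741 CPM, Cd3e at 102 CPM and Cd3d at 22.6 CPM. In ILC3-like cluster 3 the values were 38.8, 12.5 and 8.23 CPM.

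Trdv4 stood apart from Trdc in ILC2-like cells. It had 694 UMIs in immune cells and was highest in ILC2-like cells at 153 CPM (134 to 174) and in γδ T-like cells at 143 CPM (121 to 167), which did not differ beyond their intervals. Of 233 ILC2-like cells without a TRB contig, 122 had Trdv4, or 52.4% (45.7 to 58.9), and 107 of the 122 had no Trdc UMI. Of 25 γδ T-like cells with Trdv4, 7 had no Trdc UMI. The epithelial share with Trdv4 was 0.274%. The share of ILC2-like cells with Trdv4 was 50% in the 18 FTOC cells.

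The δ V genes with a Trdv symbol were then counted against Trdc. Genes with a Trav symbol were not counted. In ILC2-like cells this count is mostly Trdv4 itself, which gave 225 of the 232 δ V UMIs. Per 100 Trdc UMIs there were 682 δ V UMIs (475 to 1009) in ILC2-like cells, from 232 against 34 UMIs. There were 136 (113 to 162) in γδ T-like cells, 87.7 (76.9 to 99.9) in cytotoxic-like cluster 5 and 98.2 (83.0 to 116) in cluster 7. ILC3-like cluster 3 had 200 (69.5 to 649.5), from 12 against 6 UMIs, which overlapped the other clusters. For the γ chain, per 100 γ constant UMIs there were 3.03 γ V UMIs (2.10 to 4.24) in ILC2-like cells and 16.2 (13.3 to 19.5) in ILC3-like cluster 3. There were 71.6 in γδ T-like cells, 128 in cytotoxic-like cluster 5 and 95.2 in cluster 7. Tcrg-V5 gave 111 of the 128 γ V UMIs in cluster 3.

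Tcrg-V6 had 1070 UMIs in immune cells and lay in few cells with several UMIs each. Its levels were 96.2 CPM in γδ T-like cells, 96.1 CPM in cytotoxic-like cluster 5 and 86.2 CPM in cluster 7, with overlapping intervals. It was 0.667 CPM in ILC2-like cells and 0.363 CPM in ILC3-like cluster 3, from 1 UMI each. The small ILC3-like cluster 16 had 158 CPM from 12 UMIs in 5.88% of its cells. Without a TRB contig, Tcrg-V6 was found in 18 of 109 γδ T-like cells, 34 of 167 cells of cluster 5 and 25 of 183 of cluster 7. Both Tcrg-V6 and Trdv4 were found in 12 γδ T-like cells, 6 cells of cluster 5 and 3 of cluster 7.

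Of the 21 segment symbols in the matrix that start with Trd or Tcrg, 15 had at least 20 UMIs in immune cells. In γδ T-like cells without a TRB contig the other V genes stood at 136 CPM for Tcrg-V5, 135 CPM for Trdv5, 127 CPM for Trdv2-2 and 94.3 CPM for Tcrg-V4. Tcrg-V1 had 38.9 CPM, Trdv1 24.0 CPM, Tcrg-V3 21.0 CPM and Tcrg-V7 8.98 CPM. Trdv5 was at 229 CPM in cluster 12 and 162 CPM in cytotoxic-like cluster 5. Tcrg-V1 was at 89.7 CPM and Tcrg-V7 at 39.5 CPM in cytotoxic-like cluster 7. In ILC3-like cluster 3 no UMI of Trdv1, Trdv2-2, Trdv5 or Tcrg-V3 was found.

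The transcription factor genes separated the clusters further. Sox13 had 84 UMIs in immune cells, of which 48.8% lay in γδ T-like cells, at 38.3 CPM (27.5 to 52.0). It was found in 16.3% of γδ T-like cells and had 1 UMI in each cytotoxic-like cluster and none in clusters 3, 8, 12 and 16. In epithelial cells Sox13 was at 8.64 CPM. Maf was highest in γδ T-like cells at 478 CPM (438 to 522), with UMIs in 86.3% of cells. It was 269 CPM in ILC3-like cluster 3, 148 CPM in ILC2-like cells and 166 CPM in macrophage-like cells, and 9.004 CPM in cytotoxic-like cluster 5. Epithelial cells had 65.2 CPM of Maf. Zbtb16 was highest in the small ILC3-like cluster 16, at 170.8 CPM (90.9 to 292) from 13 UMIs. It was 60.7 CPM (46.9 to 77.4) in γδ T-like cells, 49.4 CPM (41.4 to 58.4) in ILC3-like cluster 3 and 37.2 CPM in cytotoxic-like cluster 7, and 1 UMI was found in ILC2-like cells.

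Cd163l1 had the most UMIs of the 10 genes, 5802 in immune cells. Its level was 1104 CPM (1042 to 1169) in γδ T-like cells, 474 CPM in cytotoxic-like cluster 5 and 231 CPM in ILC3-like cluster 3. It was found in 74.4% of γδ T-like cells and in 13.7% of cells of cluster 3. Among cells without a TRB contig, those with Cd163l1 had a median of 9 UMIs in the γδ T-like cluster and of 8 in cluster 3. Cluster 16 reached 1406 CPM (1152 to 1699). There 10 of 17 FTOC cells had 107 UMIs between them and 0 of 17 ORFTOC cells had any. With 3 cells allowed for a 0, which is not an exact limit, the ORFTOC share could be up to 17.65%.

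The levels were then set against TRB status, with a cell called TRB negative when it had no productive TRB contig. All TRB contigs in the deposited filtered list were taken as productive. Lymphoid cells were taken as all immune cells but the macrophage-like cluster and unnamed cluster 17, in which dendritic markers were highest. They thus kept cluster 14, 130 parathyroid-like cells led by Pth and Chga, of which 80 were TRB negative. Over all cells of cluster 14 Maf was 127 CPM, and 7 Sox13 UMIs were found. The 1971 TRB negative lymphoid cells had 524 CPM of the 4 constant genes summed and the 3753 TRB positive cells 169 CPM. In ORFTOC the values were 549 against 178 CPM, a ratio of 3.08 (2.92 to 3.26), and in FTOC 492 against 159 CPM, a ratio of 3.10 (2.91 to 3.30). With equal weight per cell the FTOC log2 ratio rose from 1.63 to 2.37. Over both pools 9 of the 10 genes were at least 2-fold higher in TRB negative cells, where 17.3% of 12896 genes were, and the exception was Tcrg-C2. None (0) of the 10 was at least 2-fold lower, against 7.17% of genes. The ratio was 2.55 for Trdc, 4.94 for Tcrg-C1, 3.28 for Tcrg-C4 and 1.69 for Tcrg-C2. It was 10.4 (8.38 to 13.1) for Trdv4, 7.45 for Maf, 5.46 for Zbtb16, 5.23 for Tcrg-V6, 5.16 for Cd163l1 and 2.63 (1.66 to 4.23) for Sox13.

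The same ratio was taken within clusters. In mature SP cells Trdc was 156 CPM in 57 TRB negative and 9.52 CPM in 530 TRB positive cells, a ratio of 16.4 (10.9 to 24.97). The ratio was 6.31 (4.84 to 8.28) in cluster 12 and 2.98 (2.57 to 3.47) in cytotoxic-like cluster 5. In cytotoxic-like cluster 7 it was 2.62 (1.88 to 3.73) in ORFTOC and 0.864 (0.663 to 1.13) in FTOC. In γδ T-like cells Trdc was 316 CPM in 133 TRB negative and 276 CPM in 27 TRB positive cells, a ratio of 1.14 (0.857 to 1.55). Sox13 in these cells was 38.2 and 38.8 CPM and Maf 486 and 446 CPM, with overlapping intervals. The share of doublets among them was not tested.

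**Figure D3:**
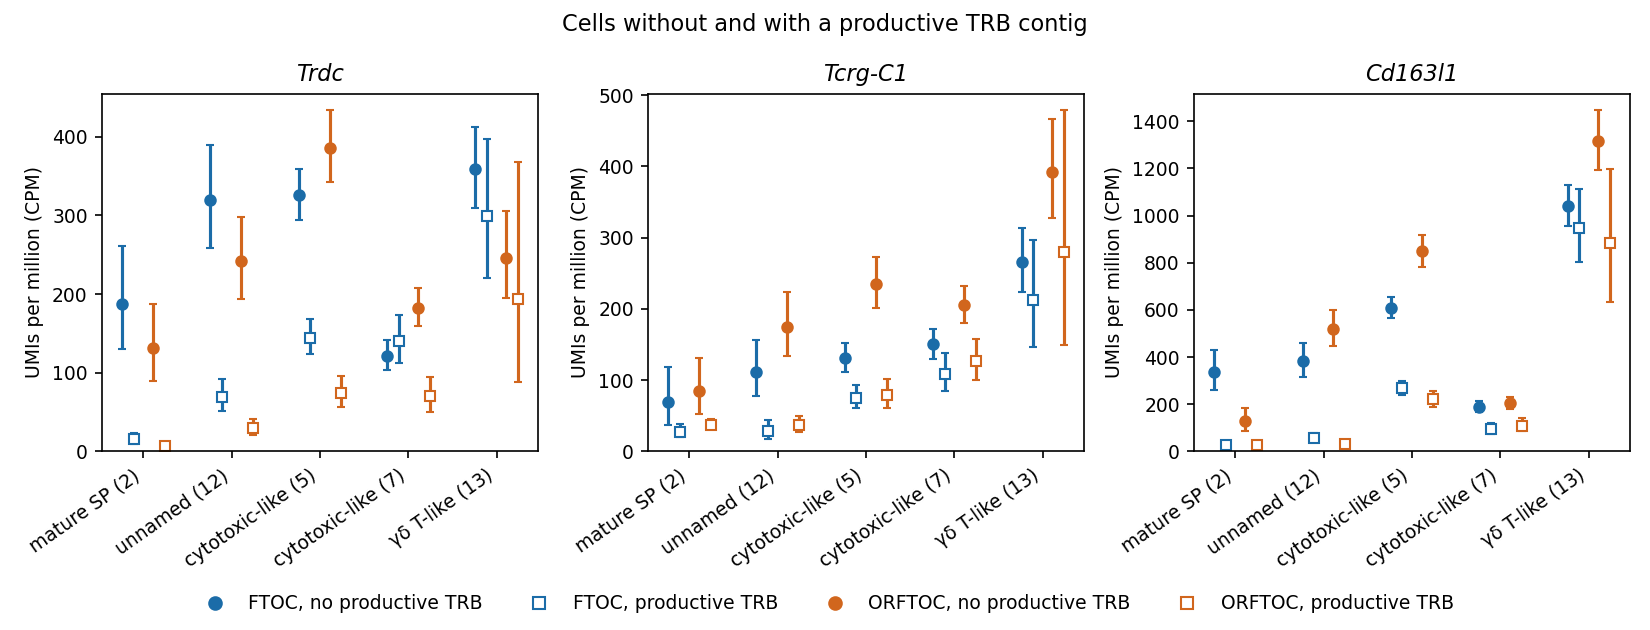
Level in CPM, with 95% counting intervals, of Trdc, Tcrg-C1 and Cd163l1 in cells without and with a productive TRB contig, for clusters 2, 12, 5, 7 and 13 and for each pool. Trdc in mature SP cells (cluster 2) was 156 CPM without and 9.52 CPM with TRB over both pools, and in the γδ T-like cluster 13 the values were 316 and 276 CPM.

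In TRB positive thymocytes Trdc was highest at the cycling stage. It was 77.2 CPM (70.6 to 84.3) in cycling thymocytes, 16.1 CPM (12.1 to 20.8) in double positive cells, 2.54 CPM (0.0643 to 14.2) in selected cells, from 1 UMI, and 9.52 CPM (6.80 to 13.0) in mature SP cells. The γ constant genes fell from the cycling to the double positive stage too, with Tcrg-C2 going from 59.2 to 6.02 CPM and Tcrg-C1 from 42.3 to 8.31 CPM. In contrast to Trdc, the γ constant genes were higher in mature SP than in double positive cells. In mature SP cells Tcrg-C1 was 34.3 CPM (28.9 to 40.4), Tcrg-C2 18.3 CPM (14.5 to 22.9) and Tcrg-C4 11.7 CPM (8.63 to 15.4). Tcrg-C4 was 2.58 CPM (1.18 to 4.9) in double positive cells. No UMI of Tcrg-V6 or Zbtb16 was found in the 617 cycling cells.

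Since α joining deletes Trdc, TRB positive cells were also split by a productive contig of the TCR α chain (TRA). All TRA contigs in the filtered list were likewise taken as productive. In cycling thymocytes Trdc was 84.7 CPM in 527 cells without and 29.3 CPM in 90 cells with TRA, a ratio of 2.89 (1.95 to 4.47). The ratio was 3.59 (1.90 to 7.62) in FTOC and 2.38 (1.45 to 4.22) in ORFTOC. In mature SP cells Trdc was 56.0 CPM in 64 cells without and 3.75 CPM in 466 cells with TRA, a ratio of 14.96 (7.53 to 31.0). In double positive cells the values were 17.95 and 12.9 CPM, and the interval of their ratio, 0.768 to 2.62, included equal levels. The γ constant genes, which α joining leaves in place, were split likewise. In cycling cells the ratio was 0.829 (0.599 to 1.17) for Tcrg-C1 and 0.909 (0.685 to 1.23) for Tcrg-C2, while Tcrg-C4 was also lower with TRA, at 1.68 (1.05 to 2.85). In mature SP cells the ratios were 2.68 (1.79 to 3.95), 3.65 (2.15 to 6.01) and 4.68 (2.46 to 8.62) for Tcrg-C1, Tcrg-C2 and Tcrg-C4. Genes outside the TCR loci were lower with TRA there too. Cd163l1 was 164 CPM without and 11.5 CPM with TRA, and Maf 30.2 and 5.35 CPM. Tcrg-V6 was not lower, at 10.8 and 11.2 CPM. How else the mature SP cells without TRA differed was not tested.

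**Figure D4:**
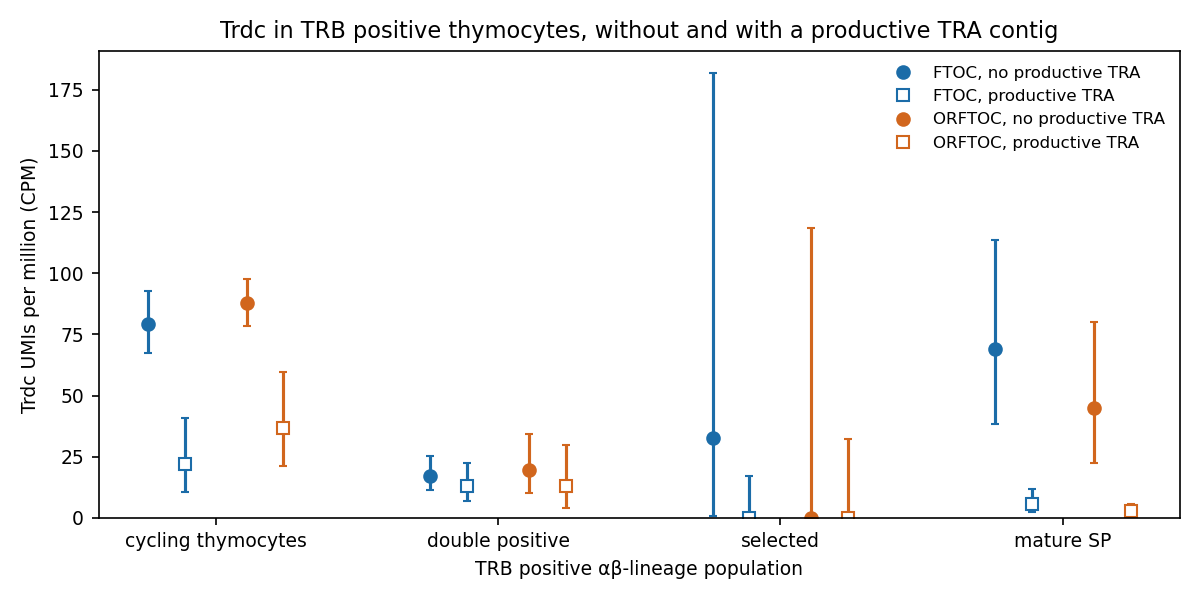
Trdc level in CPM, with 95% counting intervals, in TRB positive cells of each thymocyte stage, without and with a productive TRA contig, by pool. In cycling thymocytes it was 79.3 against 22.1 CPM in FTOC and 87.6 against 36.8 CPM in ORFTOC.

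In all, 21 cells of the cycling thymocyte clusters had no TRB contig at all. They held 35 Trdc UMIs in 8 cells, 116 Cd163l1 UMIs in 9 cells, 7 Sox13 UMIs in 4 cells and 33 Maf UMIs in 4 cells. No Tcrg-V6 or Trdv4 UMI was found in them.

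The TCR library gave few δ and γ contigs, with 148 TRD contigs and 2 TRG contigs in the unfiltered list and no productive TRD contig. Per the study's methods, the library was made with a mouse TCR amplification kit. Whether it captures γ and δ transcripts was not tested, so contig counts say nothing of how common γδ rearrangements were. Of the TRD contigs, 142 carried the α constant gene TRAC and none carried TRDC. An α J segment was named in 130 and a δ J segment in 6. TRDV1 was named in 97, TRDV2-2 in 30 and TRDV4 in 6. They came from 114 immune cells, of which 103 had a productive TRB contig, 50 were cycling thymocytes, 30 were double positive, 19 had a Trdc UMI and 1 was γδ T-like. The junctions with a δ J segment and the most UMIs came from cells with a productive TRB contig and 0 Trdc UMIs. Their contigs carried TRAC. They are shown with capitals for the bases that follow the longest start found in the V transcript. The capitals were not split into D, J and added bases.
TRDV2-2 to TRDJ1, 10 UMIs, ORFTOC: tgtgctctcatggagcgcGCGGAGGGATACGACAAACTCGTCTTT
TRDV1 to TRDJ1, 6 UMIs, FTOC: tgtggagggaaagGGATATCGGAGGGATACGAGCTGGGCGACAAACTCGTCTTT
TRDV2-2 to TRDJ1, 4 UMIs, FTOC: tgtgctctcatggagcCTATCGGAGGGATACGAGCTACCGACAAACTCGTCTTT

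Between the pools the summed constant genes did not differ beyond counting error, at 280 CPM in ORFTOC and 271 CPM in FTOC immune cells, a ratio of 1.03 (0.992 to 1.07). On the log2 scale this was 0.05, and it ranged from -0.078 with hashtags by ratio to 0.57 with equal weight per cell. The single genes differed. Trdc was 63.1 CPM in ORFTOC and 99.7 CPM in FTOC, a ratio of 0.633 (0.588 to 0.681), and Tcrg-C1 was 122 and 76.3 CPM, a ratio of 1.61 (1.499 to 1.72). With equal weight per cell the log2 ratio of Tcrg-C1 was 1.45 in place of 0.68, past 2-fold. Tcrg-C2 (0.919) and Tcrg-C4 (1.08) had intervals that included equal levels. Among the V genes, Tcrg-V6 was 36.0 and 20.2 CPM and Trdv4 24.4 and 11.7 CPM, ratios of 1.79 (1.57 to 2.04) and 2.09 (1.77 to 2.49). Sox13 was 0.814 and 4.25 CPM, a ratio of 0.192 (0.106 to 0.330), from 17 and 67 UMIs. Its log2 ratio was -1.19 with equal weight per cell in place of -2.38. Cd163l1 had a ratio of 0.787, and its direction turned with equal weight per cell, from -0.35 to 0.058 on the log2 scale. Maf had a ratio of 1.14. Zbtb16 did not differ beyond its interval at 13.5 and 13.7 CPM, and with equal weight per cell its log2 ratio went from -0.025 to 0.65.

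Of the 10 genes, 1 (Trdv4) was at least 2-fold higher in ORFTOC immune cells, where 5.83% of 13368 genes were, and 1 (Sox13) was at least 2-fold lower, where 4.24% were. In TRB negative lymphoid cells 2 genes were at least 2-fold higher, Trdv4 at 2.46 (2.04 to 2.99) and Tcrg-V6 at 2.09 (1.79 to 2.45), against 4.5% of 11692 genes. Tcrg-V6 was under 2-fold with hashtags by ratio (log2 ratio 0.84), doublets within pools kept (0.97), unfiltered TRB contigs (0.87) and equal weight per cell (0.27), and Trdv4 with unfiltered TRB contigs (0.88). In immune cells Trdv4 was under 2-fold with hashtags by ratio, at 0.95. In these TRB negative cells 1 gene, Sox13 at 0.191 (0.0853 to 0.386), was at least 2-fold lower, against 4.84% of genes.

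**Figure D5:**
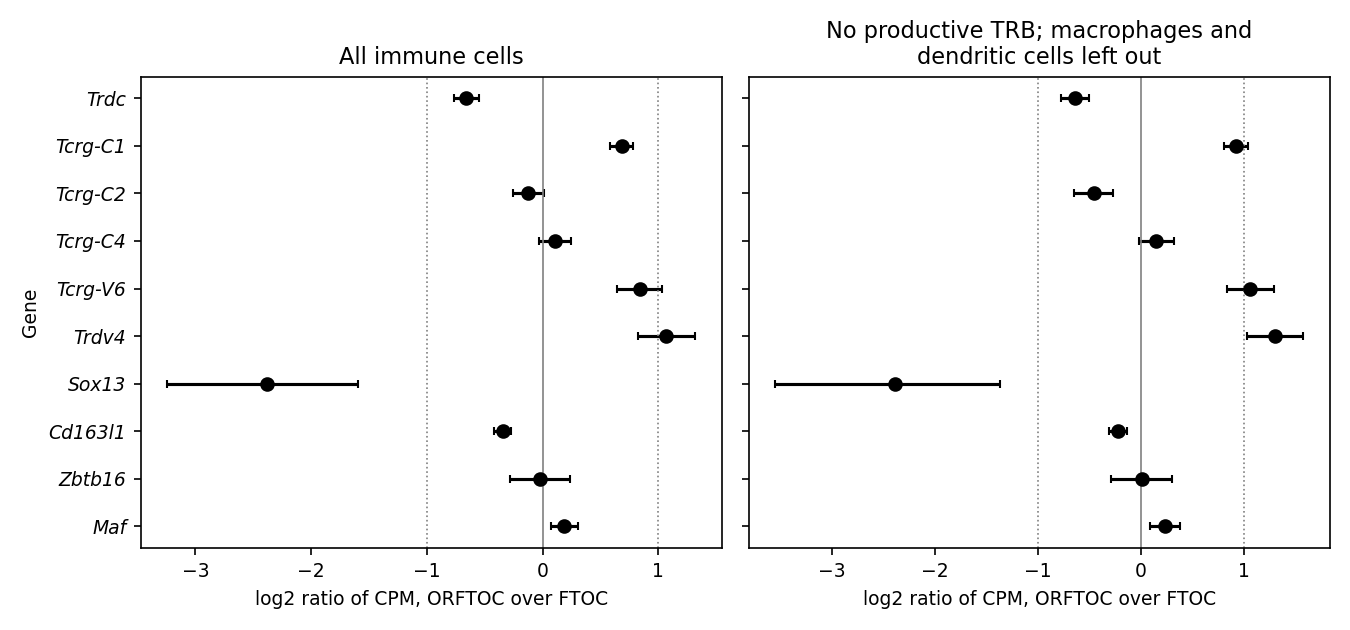
Log2 ratio of CPM, ORFTOC over FTOC, for each of the 10 genes in immune cells and in TRB negative lymphoid cells, with 95% counting intervals. Sox13 lay lowest at −2.38 and −2.39, and Trdv4 highest at 1.07 and 1.30.

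Within clusters the values were as follows. In γδ T-like cells the summed constant genes were 876 and 858 CPM, Trdc had a ratio of 0.693 (0.537 to 0.887) and Tcrg-C1 of 1.49 (1.19 to 1.88). Sox13 was 18.8 CPM in ORFTOC and 48.7 CPM in FTOC, a ratio of 0.386 (0.145 to 0.885) from 7 and 34 UMIs, and with no TRB contig the ratio was 0.427 with an interval from 0.140 to 1.11 that included equal levels. Trdv4 was 218 and 103 CPM there, a ratio of 2.11 (1.52 to 2.94), but in γδ T-like cells with no TRB contig the ratio was 1.06 (0.708 to 1.58). Over all γδ T-like cells, the Trdv4 UMIs lay in 16 cells of each pool. These were 25.8% (15.5 to 38.5) of ORFTOC and 16.3% (9.63 to 25.2) of FTOC cells, with overlapping intervals. Tcrg-V6 did not differ beyond its interval in γδ T-like cells, at 99.4 and 94.5 CPM. It did in cytotoxic-like cells, with 152 against 24.7 CPM in cluster 7, a ratio of 6.16 (4.54 to 8.53), and 146 against 64.7 CPM in cluster 5, a ratio of 2.26 (1.84 to 2.79). These intervals take UMIs of 1 cell as separate draws. By cells, Tcrg-V6 was found in 21.9% (17.5 to 26.8) of ORFTOC and 9.87% (7.29 to 13.0) of FTOC cytotoxic-like cells. In cluster 7 without a TRB contig the shares were 17.9% (11.2 to 26.6) and 7.79% (2.91 to 16.2), with overlapping intervals. In cluster 12 without a TRB contig, 17 ORFTOC cells held 102 Tcrg-V6 UMIs and 14 FTOC cells held none. With 3 counts set for the FTOC cells together, the level was 23.1-fold higher by UMIs. The ORFTOC UMIs lay in 8 cells. By cells the shares were 47.06% (22.98 to 72.19) in ORFTOC and 0% (0 to 23.16) in FTOC, with overlapping intervals. In the TRB negative cells of cluster 12, Tcrg-V6 was 308.5 CPM in 22 ORFTOC and 49.3 CPM in 21 FTOC cells. These TRB negative cells include those with a TRB contig that was not in the filtered list. Over all cells of cluster 12 the ratio was 5.96 (3.49 to 10.9). Whether cells with Tcrg-V6 shared a rearrangement was not tested. In ILC3-like cluster 3 Tcrg-C2 and Tcrg-C4 were lower in ORFTOC, at ratios of 0.420 (0.230 to 0.778) and 0.493 (0.360 to 0.681). With no TRB contig there, the ratios were 0.592 (0.295 to 1.25) and 0.565 (0.401 to 0.804). In that cluster Maf stood at 269 and 268 CPM, a ratio with the interval 0.846 to 1.19. ILC2-like cells had 19 FTOC cells, and no gene of the 10 differed beyond its interval.

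A wider list of 54 genes of γδ T cell and innate lymphocyte biology gave 12 genes at least 2-fold higher and 5 at least 2-fold lower in ORFTOC among TRB negative lymphoid cells, against 4.5% and 4.84% of all genes, with a median log2 ratio of −0.14. The highest ratios were those of Il4 (21.4), Il13 (13.97), Tox2 (4.13), Egr1 (3.45) and Il22 (3.40). Il4 and Il13 encode type 2 cytokines, and Il13 was at 1097 CPM in ILC2-like cells without a TRB contig and at 0.534 CPM or less in clusters 3, 5, 7 and 13. The lowest were those of Ifng (0.0890), Il17a (0.160), Rag1 (0.377), Cd247 (0.423) and Rag2 (0.429). Within γδ T-like cells, 40 genes of the list had enough UMIs, of which 2 were at least 2-fold higher, against 2.74% of 6032 genes, and 5 at least 2-fold lower, against 4.71%. Il17a was a leading gene of this cluster, as Il13 was of the ILC2-like one, so their values are descriptions. Il17a, which encodes interleukin 17A, was 113 CPM in ORFTOC and 328 CPM in FTOC, a ratio of 0.344 (0.241 to 0.480). Il17f was 0.319 (0.179 to 0.536), Sox4 0.371 (0.207 to 0.629) and Id3 0.438 (0.162 to 1.02). Cd24a, a marker of immature cells, had 1 and 20 UMIs, a ratio of 0.0938 (0.00226 to 0.586). Egr1 was higher at 3.48 (1.75 to 7.22) and Id2 at 2.37 (1.87 to 3.002). In cytotoxic-like cluster 5, 0 of 35 genes were at least 2-fold higher and 2 lower, against 1.18% and 2.4% of all genes. In cluster 7, 1 of 38 was higher and 1 lower, against 1.46% and 2.12%.

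Across the 18 immune clusters, the genes whose levels were most like the summed constant genes were Cad, Acsbg1, Fkbp3, Gm29243 and Rexo2, with Pearson correlations of 0.784 to 0.795 among 10803 genes. The clusters differ in depth and share 1 lane, so these are descriptions.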

How the data were processed

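Gene expression, TCR and hashtag libraries came from 1 lane of 5′ droplet sequencing. The authors deposited raw UMI counts for every barcode, made with Cell Ranger 6.1.2 on mm10 per the submitters' processing notes, which also name Seurat 4.2.0. The header of the matrix names another major version of Cell Ranger. For each TCR contig the deposited lists hold its UMI and read counts.

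Cells with at least 600 genes and 0.4 to 10% mitochondrial UMIs were assigned to pools with HTODemux (quantile 0.99) in Seurat 5.3.0, and 591 doublets within pools were removed by a rule on 50 neighbours. Of 705161 barcodes, 10245 passed the limits and 8392 were kept. SCTransform (sctransform 0.4.2), 18 principal components and a resolution of 1 gave the immune clusters, with 25 symbols of members and TCR segments left out. Clusters were named where at least 3 markers were detected and own markers were among the 10 leading genes. This naming rule was set after leading genes had been seen. Levels are summed UMIs as CPM. Their intervals are exact Poisson ones, with Clopper-Pearson intervals for shares and exact conditional binomial ones for ratios. Genes needed at least 20 UMIs to be counted between pools. Each pool was 1 sample, so no test was made. Scripts were tested on simulated data. The versions were pandas 2.3.3, scipy 1.17.1, numpy 2.4.6 and matplotlib 3.10.9 under Python 3.11.15, and R 4.3.3.

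All 10 members were named, as were segments with a Trd or Tcrg symbol and at least 20 UMIs. Up to 5 highest and 5 lowest ratios of the pathway list and the 5 genes most alike were named too. The members and lists were chosen with earlier results of these data known. Genes that lead clusters, the CD3 chains and the other pathway genes given within clusters were named after their values were seen. Alternatives changed the hashtag rule, the gene minimum, doublet removal, the TRB call, cell weights, free RNA, clustering, depth and the detection limit.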

Additional observations from a re-analysis of the deposited data

Results flagged for a closer look

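Among the 1853 barcodes that passed the gene and mitochondrial limits but were not kept, being negative for hashtags or removed as doublets, 225 held 659 Trdc UMIs, or 31.9 CPM. This lies above the 3 counts that a count of 0 allows. They enter no comparison between pools.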

How the results depend on the processing

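On the log2 scale, the summed constant genes in ORFTOC over FTOC (0.05) came to −0.078 with hashtags by ratio, 0.13 with at least 1000 genes, 0.19 with doublets within pools kept and 0.57 with equal weight per cell. TRB negative over TRB positive (1.62 in ORFTOC, 1.63 in FTOC) came to 1.45 and 1.35 with unfiltered TRB contigs, 2.21 and 2.37 with equal weight per cell, and 1.73 in FTOC with the free RNA profile subtracted. The count of genes past 2-fold was 1 in place of 2 in immune cells with hashtags by ratio, and 1 in place of 3 in TRB negative cells with unfiltered contigs. Trdc among cells with γ constant UMIs came to 32.1% (thinned) and 48.8% (at least 2 UMIs) in γδ T-like cells, 0.99% and 3.75% in ILC2-like cells, and 0% with at least 2 UMIs in ILC3-like cells. Cd163l1 in immune cells turned from −0.35 to 0.058 with equal weight per cell. The cause was not tested in these cases. Of the other alternatives for single genes, 49 moved and 128 stayed within their interval. No paired analysis was possible because each pool was 1 sample, and no replicate could be left out. Depth limits what can be said of Sox13, with 84 UMIs in immune cells.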
